A study of Homo sapiens with 2 samples.

Results

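FaDu is a human cell line that grew out of a hypopharyngeal squamous carcinoma, and its proteasome genes were compared between 2 RNA sequencing libraries. The genes were taken by symbol, as every gene of the table whose name begins with PSM, a letter from A to G and a number. This gave 49 of 16951 genes. Of these, 47 encode proteasome subunits, activators, an inhibitor or assembly chaperones. The other 2, PSMC3IP, a cofactor of meiotic recombination, and PSME3IP1, a partner of the activator PSME3, encode none of these. They are included in the counts over all 48 genes below and are left out of every subcomplex. Of the 49 genes, 48 reached 1 CPM (reads scaled by library size) in one library or both, with 257 to 12168 reads. The exception was PSMB11, the catalytic subunit of the thymus, with 1 read in C1 and 0 in D1. A count of 0 allows up to 3 counts, so no fold is given for it. PSMA8, the alpha subunit of the testis, was not analysed here.

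Per the labels, both cultures were FaDu cells collected at day 2, 1 with shControl, which the series text calls a blank vector, and 1 with shKIF2C, against a kinesin that depolymerises microtubules. Of each culture, the sources used here do not say whether it was a pool or a clone. The comparison was made to ask how KIF2C bears on growth and motility. The deposited table calls its libraries C1 and D1, and no label says which is which. KIF2C had 783 reads in C1 and 3036 in D1, so the library whose letter could stand for control holds less of the targeted mRNA. Neither library can be called the knockdown here, and all differences are given as D1 against C1. There was 1 library per condition, so no difference has a replicate check and no p-value is given. The intervals are exact 95% intervals that cover counting error only. The RNA came from bulk cultures, in which fewer cells of a type and less RNA per cell cannot be told apart. Epithelial mRNAs were abundant in both libraries, with KRT8 at 2830 and 2447 TPM (a level per transcript length and library size). The 6 epithelial markers summed to 6049 and 7219 TPM, and 2 of them differed widely, KRT5 with 6425 and 41074 reads and TP63 with 1869 and 4690. Of the markers of leukocytes, which express the inducible proteasome subunits without interferon, PTPRC had 15 and 11 reads and CD3E had 7 and 3. The myeloid marker CD14 had 215 and 120 reads, a log2 ratio of -0.75 (-1.09 to -0.42). ITGAM had 35 and 17 reads, a ratio of -0.93 (-1.88 to -0.08). Both were lower in D1, as were PSMB9 and PSMB10. CD68 had 1008 and 1011 reads and a ratio of 0.09 (-0.03 to 0.22), which was not lower. The 5 leukocyte markers summed to 90.8 and 78.7 TPM, of which the lysosomal CD68 made up 69.9 and 67.5. Of the 3 endothelial markers, PECAM1 had 12 and 13 reads and VWF 22 and 29, while CDH5 had 1000 and 249. Of the 3 fibroblast markers, PDGFRB had 0 reads in C1 and 1 in D1, and the other markers were not analysed here. The part of these marker differences in the results was not tested.

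The proteasome degrades proteins tagged with ubiquitin. Its 20S core is a barrel of outer rings of alpha subunits (PSMA) and inner rings of beta subunits (PSMB), and PSMB5, PSMB6 and PSMB7 carry the catalytic sites. The 19S particle on the end of the barrel recognises, unfolds and feeds in the substrate, by means of its ATPases (PSMC) and other subunits (PSMD). Interferon induces PSMB8, PSMB9 and PSMB10, which take the places of PSMB5, PSMB6 and PSMB7 during assembly and form the immunoproteasome. Interferon also induces PSME1 and PSME2, which form the PA28 activator, and the altered core and activator are known for making peptides that MHC class I molecules present.

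The start regions of the 5 interferon-inducible genes are shown because factors of the interferon response bind DNA near the starts of such genes. Each line is the RefSeq window of the gene in GRCh38.p14, 5′ to 3′ on the strand of the gene. Capitals mark AAANNGAAA, the core of the interferon-stimulated response element (ISRE), searched on both strands. Matches of this core to itself may overlap. PSMB8 lies at chr6:32843998-32844297 on the minus strand, PSMB9 at chr6:32853942-32854241 on the plus strand, PSMB10 at chr16:67936801-67937100 on the minus strand, PSME1 at chr14:24135944-24136243 on the plus strand and PSME2 at chr14:24146561-24146860 on the minus strand.
PSMB8: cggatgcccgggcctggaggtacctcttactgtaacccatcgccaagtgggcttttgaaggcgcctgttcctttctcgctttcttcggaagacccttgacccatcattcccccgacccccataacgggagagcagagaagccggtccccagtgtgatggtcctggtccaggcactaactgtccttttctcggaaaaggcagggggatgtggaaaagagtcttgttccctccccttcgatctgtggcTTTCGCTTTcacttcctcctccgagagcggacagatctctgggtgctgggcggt
PSMB9: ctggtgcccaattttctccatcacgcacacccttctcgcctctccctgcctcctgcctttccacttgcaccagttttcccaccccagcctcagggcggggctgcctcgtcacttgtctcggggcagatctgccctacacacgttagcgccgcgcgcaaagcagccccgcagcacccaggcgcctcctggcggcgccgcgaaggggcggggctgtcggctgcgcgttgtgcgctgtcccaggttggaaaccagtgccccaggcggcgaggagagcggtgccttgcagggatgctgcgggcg
PSMB10: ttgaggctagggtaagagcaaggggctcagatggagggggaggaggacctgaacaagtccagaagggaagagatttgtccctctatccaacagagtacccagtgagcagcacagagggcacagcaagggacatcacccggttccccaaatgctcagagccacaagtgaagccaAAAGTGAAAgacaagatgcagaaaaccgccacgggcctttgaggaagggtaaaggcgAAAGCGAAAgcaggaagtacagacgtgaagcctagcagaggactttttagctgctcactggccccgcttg
PSME1: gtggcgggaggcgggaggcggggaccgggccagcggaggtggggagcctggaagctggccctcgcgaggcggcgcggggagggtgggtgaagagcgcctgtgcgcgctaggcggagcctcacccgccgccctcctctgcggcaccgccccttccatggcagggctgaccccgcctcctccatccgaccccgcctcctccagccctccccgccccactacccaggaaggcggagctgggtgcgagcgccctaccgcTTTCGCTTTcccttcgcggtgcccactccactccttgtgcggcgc
PSME2: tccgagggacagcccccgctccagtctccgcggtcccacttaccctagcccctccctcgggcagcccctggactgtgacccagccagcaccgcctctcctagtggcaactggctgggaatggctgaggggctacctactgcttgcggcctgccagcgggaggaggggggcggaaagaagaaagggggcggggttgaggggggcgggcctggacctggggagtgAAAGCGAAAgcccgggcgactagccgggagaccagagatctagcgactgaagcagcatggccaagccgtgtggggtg

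The ISRE core lay in the windows of 4 of the 5 inducible genes, PSMB8, PSMB10, PSME1 and PSME2. Counted by window, since PSMB8 has a further start site whose window lacked it, this was 4 of 6. Of the 32 windows of 26 constitutive subunits, PSMB6 not among them, 3 held it, those of PSMA4, PSMB4 and PSMD6. The window of the assembly chaperone PSMG4 also held the core, at -32. Among all 35116 RefSeq windows of this length, 10.5% held it. PSMB10 had 2 copies, whose first bases lay at -77 and -20 from the start site. The PSMB9 window held none. PSMB9 starts 488 bases from TAP1, a peptide transporter gene read in the opposite direction, and the TAP1 window beside it held 2 copies, at -134 and -128. The gamma-activated site TTCNNNGAA lay in 1 of 6 inducible and 5 of 32 constitutive windows, against 7.66% of all windows. NFE2L1 binds the antioxidant response element. TGANNNNGC, a loose form of the core of that element, lay in 5 of 6 and 19 of 32 windows, against 41.8%. The CCAAT box lay in 1 of 6 and 15 of 32, against 34.6%. A match is a description of the letters and not of a bound factor.

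Of the 46 measured proteasome mRNAs, 1 was past 1.5-fold between the libraries and 45 lay within it. The 47 subunit, regulator and chaperone genes made up 1.04% of all TPM in library C1 and 1.02% in library D1. Of the 48 measured genes, PSMC3IP and PSME3IP1 included, 1 was at least 1.5-fold higher in library D1, against 7.96% of 13225 genes past the same filter, and 0 were at least 1.5-fold lower, against 10.6%. At 2-fold the counts were 1 higher, against 2.4% of all genes, and 0 lower, against 4.54%. That 1 gene was PSMB6. The median log2 ratio was 0.11 for the 48 genes and also for the 46, beside 0.01 for all genes past the filter. For the 1627 genes in the middle range of abundance of these genes, 96.5 to 212 CPM, the median was 0.08. Other scalings lowered the ratios of nearly all genes: the median of all genes shifted by -0.12 with plain library totals and by -0.15 with the deposited TPM.

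**Figure D1:**
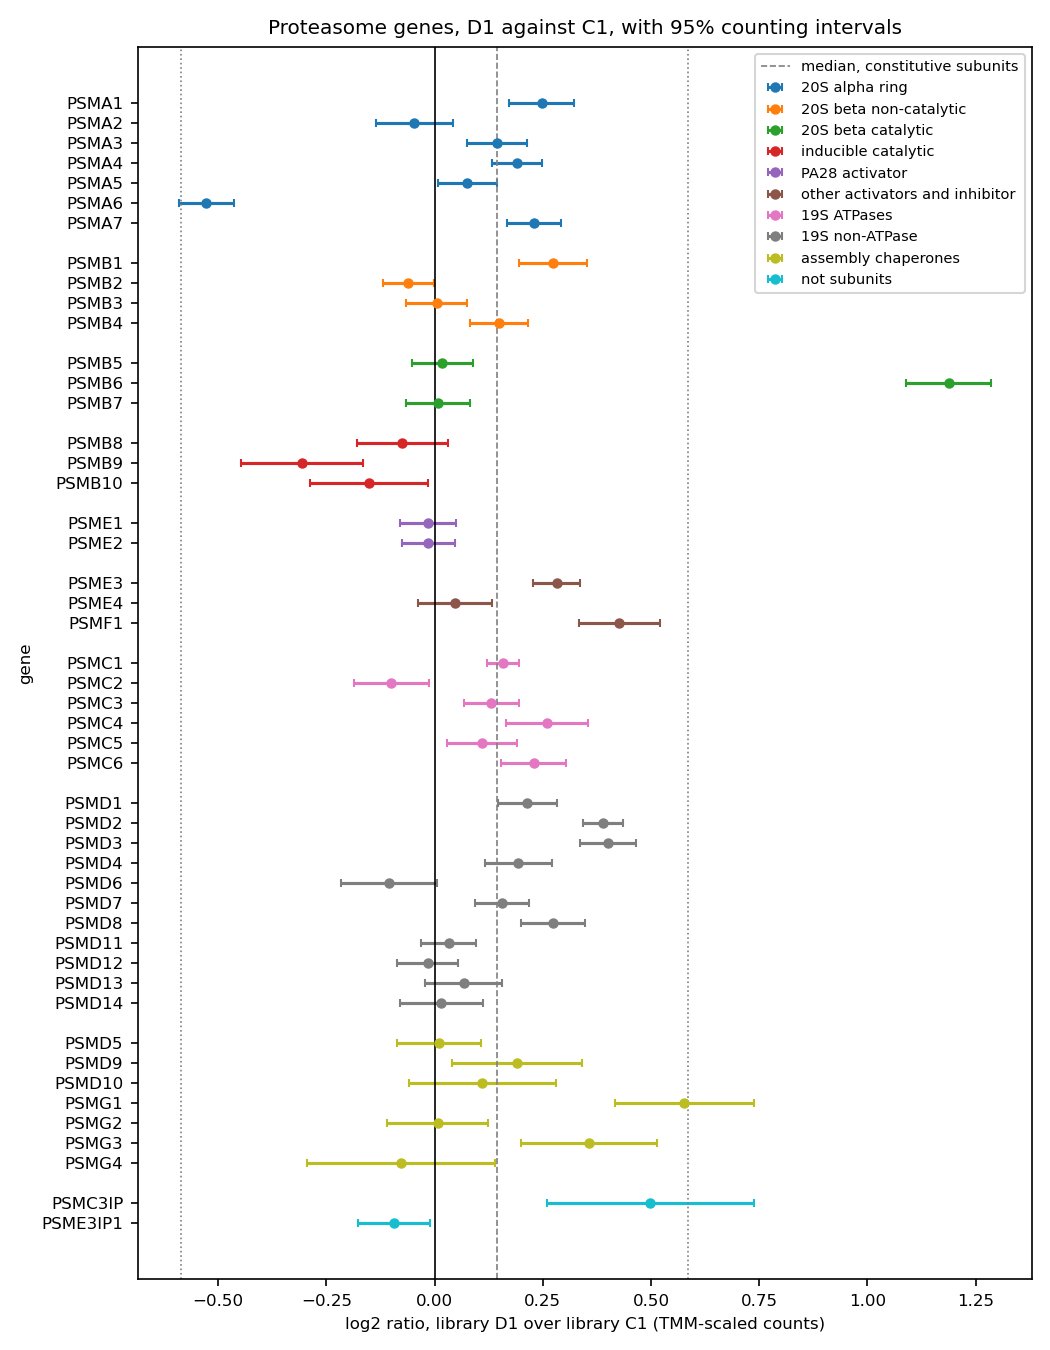
The log2 ratio of library D1 to library C1 is plotted for 46 proteasome genes by subcomplex and for PSMC3IP and PSME3IP1, as points with 95% counting intervals; the dashed line is the median of the constitutive subunits (0.14) and the dotted lines mark 1.5-fold. PSMB6 lies alone on the right at 1.19, PSMA6 is lowest at -0.53, and all 5 inducible genes lie left of the dashed line.

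PSMB6, the beta subunit with caspase-like activity that PSMB9 replaces, had 1241 reads in C1 and 2656 in D1. Its level was 183 TPM in C1 and 376 TPM in D1. The log2 ratio was 1.19 (1.09 to 1.29), a 2.28-fold difference, and 98.4% of genes past the filter had a lower ratio. The gene (NCBI identifier 5694) spans chr17:4796164-4798495 in GRCh38.p14. Its estimated counts were whole numbers in both libraries. In library C1 it was the least abundant of the 7 constitutive beta subunits other than PSMB2, at rank 22 of 46 proteasome genes by TPM. In library D1 it was at rank 9 and lay between PSMB1, at 369 TPM, and PSMB4, at 464 TPM.

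The other constitutive catalytic subunits had ratios near 0. PSMB5, the chymotrypsin-like subunit, had 3373 and 3208 reads, with a log2 ratio of 0.02 (-0.05 to 0.09). PSMB7, the trypsin-like subunit, had 3124 and 2951 reads, with a log2 ratio of 0.01 (-0.07 to 0.08). The 3 catalytic levels were unequal in library C1, with 391 TPM for PSMB5, 383 for PSMB7 and 183 for PSMB6. In library D1 they were close, with 357, 347 and 376 TPM. PSMB6 was thus the lowest of them in C1 and the highest in D1.

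The inducible catalytic subunits were the measured beta subunits with the lowest ratios, but PSMB8 was close to the constitutive PSMB2. The log2 ratio of PSMB2 was -0.06 (-0.12 to -0.002). PSMB8 had 1559 and 1391 reads, and its log2 ratio was -0.07 (-0.18 to 0.03). PSMB9 had 965 and 733 reads and a log2 ratio of -0.31 (-0.45 to -0.17), which is 1.24-fold lower in library D1. PSMB10 had 966 and 817 reads and a log2 ratio of -0.15 (-0.29 to -0.02). With the TMM scaling, the interval of PSMB8 holds 0, and those of PSMB9 and PSMB10 lie below it. With plain library totals, which lower nearly all ratios, PSMB8 was at -0.19, PSMB9 at -0.43 and PSMB10 at -0.27.

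The PA28 genes had higher levels and smaller ratios. PSME2 was the most abundant proteasome mRNA in both libraries, at 670 TPM in C1 and 599 TPM in D1. It had 4475 and 4161 reads and a log2 ratio of -0.01 (-0.08 to 0.05). PSME1 had 4064 and 3779 reads, 506 and 452 TPM, and the same log2 ratio of -0.01 (-0.08 to 0.05). The level of PSME1 relative to PSME2 was 0.755 in C1 and 0.754 in D1, and the 95% interval of the ratio of these ran from 0.940 to 1.06. Both genes of the activator thus had the same ratio between the libraries within counting error. With plain library totals both were at -0.13, and with the deposited TPM both were at -0.16.

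The 5 inducible genes were set against the 31 constitutive subunits, which are 14 of the 20S core and 17 of the 19S particle. All 5 inducible genes had a log2 ratio below 0, with a median of -0.07. Of the 31 constitutive subunits, 25 had one above 0, with a median of 0.14. This latter count was 17 with plain library totals and 14 with the deposited TPM. Among all 13225 genes past the filter, 6743 were above 0 and 6482 below. The difference of the medians was -0.22 on the log2 scale, or 1.16-fold, a difference that a scaling of whole libraries cannot alter. Of the 31 constitutive subunits, 1 had a lower ratio than PSMB9 and 1 a lower ratio than PSMB10, PSMA6 in each case. For PSMB8, 3 were lower, and for PSME1 and PSME2, 6 were lower. The counting interval of PSMB9 overlapped that of 2 constitutive subunits, and that of PSMB10 overlapped 11. Those of PSMB8, PSME1 and PSME2 overlapped 13 each. Such overlap was not counted over all genes. Among genes past the filter, 21.8% had a lower ratio than PSMB9 and 33.3% a lower ratio than PSMB10. For PSMB8 this share was 41.0%, and for PSME1 and PSME2 it was 47.6%. None of the 5 reached 1.5-fold, against 7.96% of all genes higher and 10.6% lower. The quartiles of the constitutive subunits were 0.01 and 0.23 on the log2 scale.

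The balance of each inducible subunit against the subunit it replaces needs no scaling between libraries. The level of PSMB9 was 0.622 of that of PSMB6 in library C1 (0.571 to 0.677) and 0.221 in library D1 (0.203 to 0.240). The ratio of these, from the reads, was 0.355 (0.315 to 0.400). The log2 ratio between libraries was 1.19 for PSMB6 and -0.31 for PSMB9, so PSMB6 made the larger part of this change. Against the summed reads of PSMB1 to PSMB7, PSMB9 gave 0.731 (0.662 to 0.807), PSMB10 0.814 (0.739 to 0.896) and PSMB8 0.859 (0.796 to 0.926). That sum includes PSMB6, whose higher reads in D1 lower these values, and a sum without PSMB6 was not analysed. PSMB8 relative to PSMB5 was 0.412 in library C1 (0.388 to 0.438) and 0.389 in library D1 (0.365 to 0.414), with a ratio of 0.938 (0.859 to 1.02). PSMB10 relative to PSMB7 was 0.312 (0.290 to 0.335) and 0.279 (0.258 to 0.302), with a ratio of 0.895 (0.804 to 0.997). In both libraries each inducible catalytic subunit had a lower level than the subunit it replaces. In library C1 PSMB9 was closest to its partner, and in library D1 it was furthest.

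**Figure D2:**
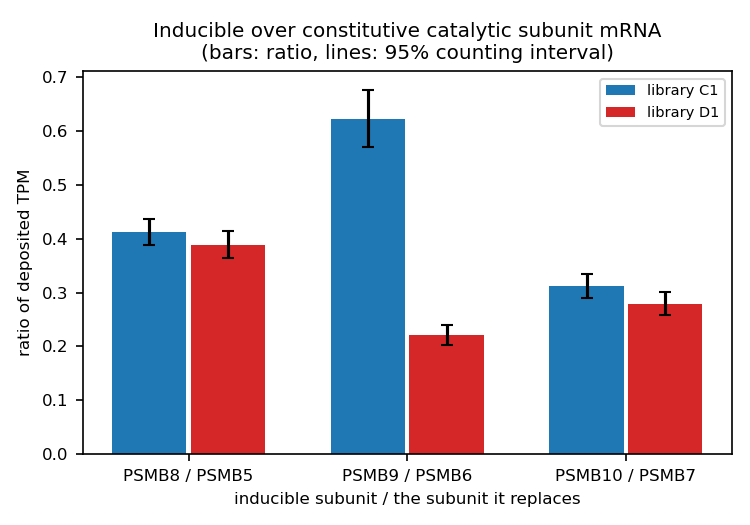
Bars give the ratio of the deposited TPM of each inducible catalytic subunit to that of the constitutive subunit it replaces, in library C1 and library D1, and lines give 95% counting intervals. The intervals of PSMB9 to PSMB6 are far apart (0.622 and 0.221), while those of the other pairs overlap.

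In the alpha ring, which gates the entry to the core, PSMA6 stood apart from the other 6 subunits. PSMA6, on chr14:35278558-35317493, had 5098 and 3322 reads, and its level was 600 and 375 TPM. The log2 ratio was -0.53 (-0.59 to -0.46), or 1.44-fold lower in library D1, and it was past 1.5-fold with plain library totals and with the deposited TPM, which shift all genes down. In library C1 PSMA6 was the second most abundant proteasome mRNA, and in library D1 it was at rank 10 of 46. Its estimated counts were not whole, and the annotated readthrough gene PRORP-PSMA6 overlaps it, so its reads may be shared. The other alpha subunits had log2 ratios between -0.05 for PSMA2 and 0.25 for PSMA1. PSMA5 was the least abundant of the ring, at 106 and 101 TPM, and PSMA7 the most abundant in D1, at 502 and 530 TPM. The alpha subunits summed to 2497 TPM in C1 and 2306 TPM in D1. Of the 7, 5 were above 0, with a median of 0.14, whereas 4 were with plain totals and 3 with TPM.

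The 4 non-catalytic beta subunits, which complete the inner rings, had log2 ratios between -0.06 for PSMB2 and 0.27 for PSMB1. Their levels were 132 and 114 TPM for PSMB2, the lowest, and 544 and 492 TPM for PSMB3, the highest. With PSMB6 and PSMA6 left out after their values were seen, the other 29 constitutive subunits lay between -0.10 and 0.40, with an SD among genes of 0.14, beside 0.26 with both.

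In the 19S particle no subunit was past 1.5-fold, against 7.96% of all genes higher and 10.6% lower. Among its ATPases, which unfold the substrate, 5 of 6 were above 0 (4 with plain totals and 3 with TPM) and the log2 ratios lay between -0.10 for PSMC2 and 0.26 for PSMC4, with a median of 0.15. PSMC1 was the most abundant ATPase mRNA, at 391 and 395 TPM, and PSMC2 the least, at 102 and 87.6 TPM. PSMC1 had fractional counts and overlaps NRDE2, so its level is uncertain. The same holds for PSMC2, which had fractional counts and overlaps PMPCB and SLC26A5. Of 11 non-ATPase subunits, 9 were above 0, with a median of 0.15, or 6 with plain totals or TPM. The highest ratios were those of PSMD3, of the lid, and PSMD2, a scaffold of the base. PSMD3 had 3463 and 4293 reads and a log2 ratio of 0.40 (0.34 to 0.47), and PSMD2 had 6573 and 8087 reads and 0.39 (0.34 to 0.44). The lowest was PSMD6 at -0.10 (-0.22 to 0.01). PSMD14, the deubiquitinase of the lid, had 1833 and 1741 reads and a ratio of 0.02, and PSMD4, a ubiquitin receptor, had 2563 and 2754 reads and 0.19. PSMD7 was the most abundant of these mRNAs in C1, at 293 TPM, and PSMD2 in D1, at 310 TPM. PSMD12 had the lowest level of all constitutive subunits, at 89.2 and 79.3 TPM. The median TPM of the 20S subunits was 2.53 times that of the 19S subunits in library C1 and 2.43 times in library D1.

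**Figure D3:**
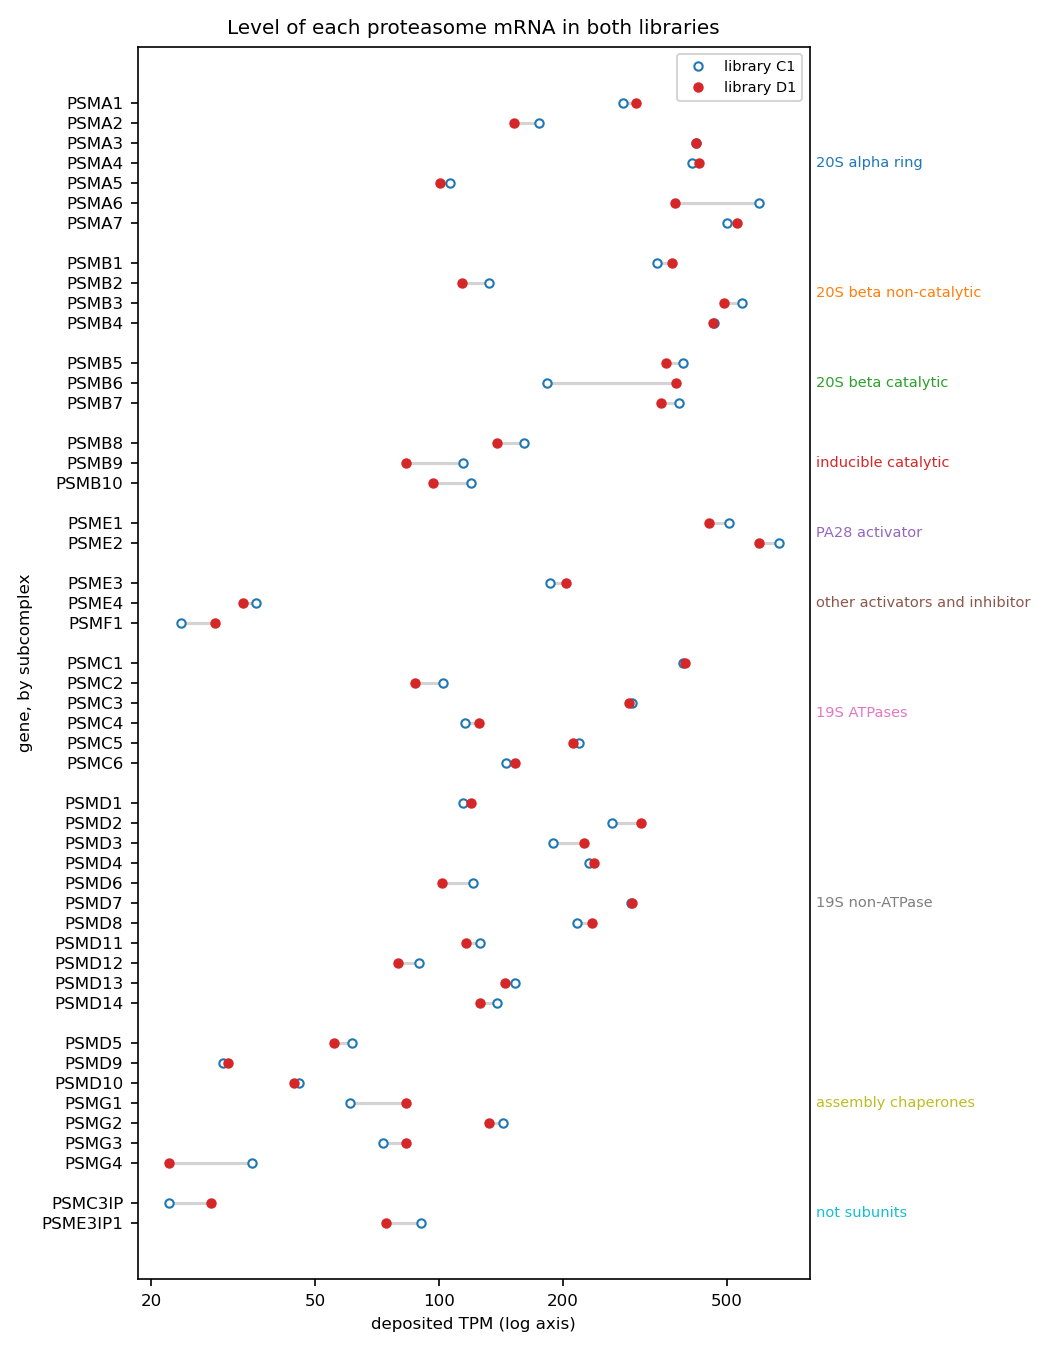
Levels of 46 proteasome mRNAs and of PSMC3IP and PSME3IP1 are plotted as deposited TPM on a log axis, in library C1 (open) and library D1 (filled), joined by a line for each gene. Most pairs of points lie close together; the longest lines are those of PSMB6 (183 and 376), PSMA6 (600 and 375) and PSMG4 (35.1 and 22.0).

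The other activators and the inhibitor of the core had log2 ratios above 0, except that PSME4 was below 0 with plain totals, TPM and FPKM. PSMF1, which inhibits the core, had 1666 and 2103 reads, with a log2 ratio of 0.43 (0.33 to 0.52). PSME3, the nuclear PA28 gamma activator, had 5096 and 5821 reads and a ratio of 0.28 (0.23 to 0.34). PSME4, the PA200 activator, had 2258 and 2193 reads and a ratio of 0.05 (-0.04 to 0.13). The interval of PSME3 lay above those of the related PSME1 and PSME2.

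Of 7 assembly chaperones, 6 were above 0, with a median of 0.11, or 3 with plain totals or TPM. PSMG1, which with PSMG2 builds the alpha ring, had 547 and 766 reads and a log2 ratio of 0.58 (0.42 to 0.74), or 1.49-fold. The estimated counts of PSMG1 were not whole, so its reads may be shared. Its partner PSMG2 had 1251 and 1181 reads and a ratio of 0.01 (-0.11 to 0.12). The level of PSMG1 was 60.9 and 83.1 TPM, while PSMG2 was at 143 and 132 TPM. PSMG3 had 608 and 731 reads and a ratio of 0.36 (0.20 to 0.51), and its partner PSMG4 had 373 and 332 reads and -0.08 (-0.30 to 0.14). PSMG3 and PSMG4 also had fractional counts. PSMD9 was the least abundant chaperone mRNA in C1, at 29.9 TPM, and PSMG4 in D1, at 22.0 TPM. The chaperones of the 19S base had ratios of 0.01 for PSMD5, 0.19 for PSMD9 and 0.11 for PSMD10. PSMC3IP, which is no proteasome gene, had 257 and 341 reads and a ratio of 0.50 (0.26 to 0.74), and PSME3IP1 had 2529 and 2226 reads and -0.09 (-0.18 to -0.01).

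PSMG4 was the gene for which reads and levels differed. Its reads gave a log2 ratio of -0.08, but its deposited level was 35.1 TPM in library C1 and 22.0 TPM in library D1, a log2 ratio of -0.67. The effective length that the reads and FPKM values imply was longer in library D1 by 0.44 on the log2 scale, relative to the median gene. The effective length of a gene is an average over its isoforms, and the cause of the shift was not tested. PSMG4 was the 1 gene of 48 with a shift of more than 0.1 either way, against 5.04% of the 10365 genes with 100 or more counts in each library.

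The nearest measured protein-coding genes on each side were read as context for the members that stood apart. PLD2, a phospholipase gene 8.66 kb from PSMB6, had 422 and 912 reads, with a log2 ratio of 1.20 (1.03 to 1.37), close to the 1.19 of PSMB6. The next gene on that side, MINK1, had 3838 and 3530 reads and a ratio of -0.03 (-0.10 to 0.04). On the other side, GLTPD2 and VMO1 had at most 11 reads. Around PSMA6, PRORP had a ratio of -0.19 and NFKBIA of -0.18, both less far from 0 than PSMA6, and PPP2R3C, beyond PRORP, had 0.35 (0.13 to 0.57), in the opposite direction. Around PSMB10, CTRL had 26 and 42 reads and 0.77 (0.04 to 1.55), and PSKH1, beyond it, had -0.60 (-0.77 to -0.43). On the other side LCAT had 0.22 (-0.16 to 0.60), and SLC12A4, beyond LCAT, had -0.02 (-0.14 to 0.10). Beside PSMG1, whose ratio was 0.58, BRWD1 had -0.50 (-0.63 to -0.37), and ETS2, 349.8 kb away on the other side, had 1.07 (0.97 to 1.18). Beside PSME2, the interferon signalling gene IRF9, 14.7 kb away, had 2178 and 699 reads and a ratio of -1.55 (-1.67 to -1.43), while RNF31 between them had -0.28. In the MHC region, TAP1, between PSMB8 and PSMB9, had 1983 and 1630 reads and a ratio of -0.19 (-0.29 to -0.10). TAP2, on the other side of PSMB8, had 2983 and 3587 reads and 0.36 (0.29 to 0.43). The deposited level of TAP2 was 94.4 TPM in C1 and 93.0 TPM in D1. On that scale the median log2 ratio of all genes past the filter was -0.14.

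Of 4 genes of interferon signalling that control the inducible subunits, 2 were at least 1.5-fold lower in library D1, against 10.6% of all genes, and 1 of these at least 2-fold lower, against 4.54%, with a median log2 ratio of -0.58 beside -0.07 for the inducible subunits. IRF9, given above, was the lowest. NLRC5, the activator of MHC class I genes, had 1621 and 893 reads and -0.77 (-0.89 to -0.65). STAT2, which acts with IRF9, had 1152 and 826 reads and -0.39 (-0.52 to -0.26). IRF1, a factor known to activate PSMB8 and PSMB9, had 1791 and 1680 reads and -0.00 (-0.10 to 0.09). Peptide handling genes had 8 of 9 members below 0 and none past 1.5-fold in either direction, against 7.96% of all genes higher and 10.6% lower, with a median of -0.26. With plain totals, TPM and FPKM 2 of them were at least 1.5-fold lower, ERAP1 at -0.62, -0.67 and -0.63 and CALR, a chaperone, at -0.62, -0.65 and -0.62. B2M, the light chain of MHC class I molecules, had 22777 and 16288 reads and -0.39 (-0.42 to -0.36). The lowest of them was ERAP1, which trims peptides in the endoplasmic reticulum, at -0.50. TAP2 was the member above 0, though below it on the TPM scale, which lowers the ratios of nearly all genes.

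Genes that work with the constitutive proteasome had medians between 0.09 and 0.28. Of 10 partners with other names, 7 were above 0, with a median of 0.09, although 4 were with plain totals and 5 with TPM. None of them passed 1.5-fold, against 7.96% of all genes higher and 10.6% lower. ADRM1, a ubiquitin receptor of the 19S particle, had 3318 and 3574 reads and a ratio of 0.20, and POMP, which guides the assembly of the beta rings, had 2874 and 2842 reads and 0.07. All 4 genes that control proteasome synthesis were above 0, also with plain totals and TPM, with a median of 0.19. NFE2L1, the transcription factor that raises proteasome genes when proteasomes are short, had 5020 and 5461 reads and a ratio of 0.21. DDI2, the protease that activates NFE2L1, had 666 and 884 reads and 0.50. Of 9 measured ubiquitin and shuttle genes, 8 were above 0 (7 with plain totals and 6 with TPM) and 1 was at least 1.5-fold higher, against 7.96% of all genes, with a median of 0.28. That gene was UBQLN1, a shuttle that delivers ubiquitinated proteins, with 2615 and 3689 reads and a ratio of 0.59 (0.51 to 0.66), at the limit of 1.5-fold. It was within 1.5-fold with DESeq2 size factors (0.58), plain totals (0.47), FPKM (0.47) and TPM (0.43). UBB, a polyubiquitin gene, had 14198 and 16456 reads and 0.30, with fractional counts, so its reads may be shared. The lowest was RAD23B, another shuttle, at -0.03 (-0.08 to 0.03).

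**Figure D4:**
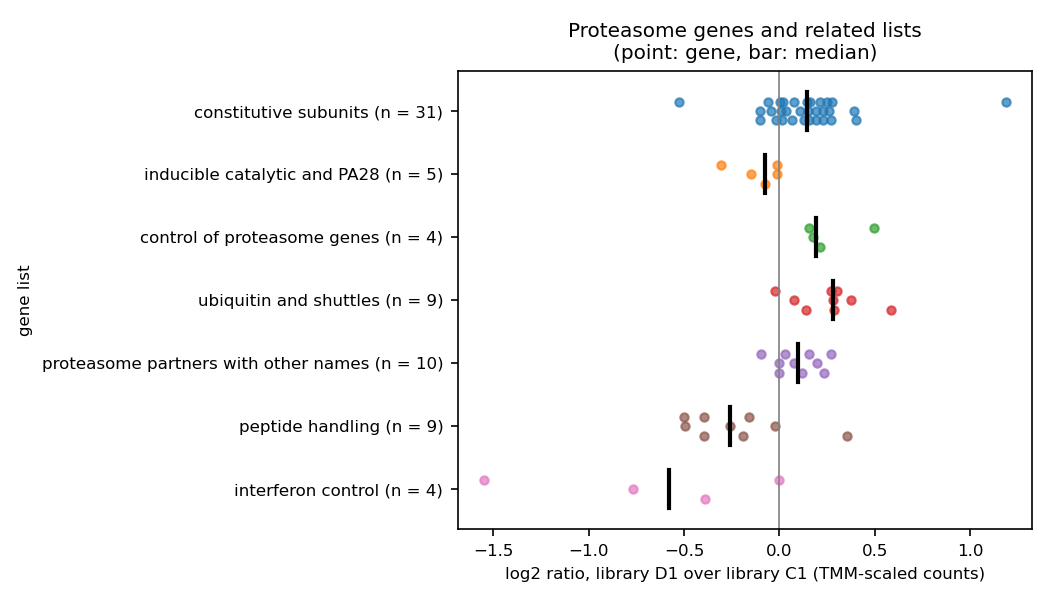
Each point is the log2 ratio of library D1 to library C1 of 1 gene and each bar the median of its list, for constitutive subunits, the 5 inducible genes and 5 related lists. The medians run from -0.58 for interferon control and -0.26 for peptide handling through -0.07 for the inducible genes to 0.14 for the constitutive subunits and 0.28 for ubiquitin and shuttles.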

How the data were processed

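RNA from 2 FaDu cultures was sequenced, 1 library per condition at day 2. Alignment and counting used hg38 with Bowtie2 and RSEM, per the submitters' processing notes. Not given in the sources used here were their versions, the annotation and the strand setting. The authors deposited estimated counts per gene, which are unnormalized per the file headers, and also deposited TPM and FPKM values, per the file headers. The totals were 18189742 and 18560024 estimated counts in libraries C1 and D1, and 48.9% and 48.2% of values were not whole. Fractional counts occurred in 16 of the 49 genes, and 20 overlap another RefSeq gene, so reads may be shared there.

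Counts were rounded and scaled by TMM in edgeR 4.0.16 (R 4.3.3), over all 16951 genes. Log2 ratios had 0.5 counts added. Intervals are exact Clopper-Pearson 95% intervals of the share of each gene's reads that D1 holds, or exact conditional intervals of an odds ratio (SciPy 1.17.1), and cover counting error only. Intervals of a level relative to another gene within a library take the gene lengths as fixed. Genes that reached 1 CPM in one library or both entered counts by size, at 1.5-fold and 2-fold. The ratio and its interval were tested on simulated counts with known library sizes and folds. The TMM scaling, fractional counts and the spread between cultures were no part of that test. DESeq2 1.42.0 gave alternative size factors. All 49 genes matched RefSeq (GRCh38.p14) by NCBI identifier, which gave coordinates, and 43 had windows of 250 bases before to 50 after a start site.

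The column codes C1 and D1 match no label. The members and lists were chosen with earlier results of these data known. Named were the inducible genes and PSMB5, PSMB6 and PSMB7, the highest and lowest others, the most and least abundant of each subcomplex, and members past 1.5-fold or outside the filter. Other members and all list genes were named after their values were seen. Some genes of the related lists are not reported here and were left out of the list counts and medians. Nothing was tested between conditions, since each had 1 library.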

Additional observations from a re-analysis of the deposited data

How the results depend on the processing

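No paired analysis was possible because each group had 1 library. The difference between the medians of inducible and constitutive genes cannot change with library totals, DESeq2 size factors or the filters tried, which gave the same value in 4 of 9 alternatives and say nothing of its stability. In the other 5 it lay between -0.251 and -0.209, where -0.251 is a difference of means. The lowest difference of medians was -0.226, with whole counts only. Each median alone moved with the scaling. That of the inducible genes was -0.19 with plain library totals, -0.22 with the deposited TPM and -0.18 with the deposited FPKM. That of the constitutive subunits was 0.025 with plain totals, -0.0066 with TPM and 0.025 with FPKM. The number of genes at least 1.5-fold lower, 0 as reported, was 1 with plain totals (PSMA6), 2 with TPM and 2 with FPKM (PSMA6 and PSMG4), and 1 without a filter (PSMB11, from 1 read). PSMB6 was the gene at least 1.5-fold higher under each alternative run. Against the summed reads of PSMB1 to PSMB7, PSMB6 included, the ratio of ratios was 0.859 for PSMB8 and 0.731 for PSMB9. Single ratios left their counting interval for 40 of 48 genes with plain totals, 44 with TPM and 40 with FPKM, which shift all genes, and for 0 with DESeq2 size factors or 5 counts added. At these depths the intervals of single genes were 0.037 to 0.24 wide on each side on the log2 scale, so ratios nearer to 0 than this were not detectable, and the spread between cultures is unknown.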
